A study of Homo sapiens with 6 samples.

Results

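The B-cell receptor signalling core was described here as 9 genes: CD79A, CD79B, LYN, SYK, BTK, BLNK, PLCG2, CD22 and PTPN6. They were chosen by name, and each was read from its brightest probe set, a group of short probes for one transcript, that the platform annotation gives to that gene alone. The 9 genes had 23 such probe sets and were among 12012 genes tested, of 19775 genes with a probe set of their own. The samples were 3 human Burkitt lymphoma lines, Raji, Namalwa and Ramos. Each line gave 1 array labelled miR26a and 1 labelled empty, so that there were 3 arrays per group and 2 per line. The labels state that the transfected cells received doxycycline at 0.5 µg/ml for 72 h to switch on the microRNA, and the same protocol text stands on the empty arrays. Total RNA was hybridised to Affymetrix U133 Plus arrays, and all levels below are log2 intensities after RMA, the authors' background correction, normalisation and summary of probes. No label says whether the lines were clones or whether the cultures were repeated. Each line had 1 array per group, so the spread behind every test is how unevenly the 3 lines differed between miR26a and empty. That spread was pooled in part over genes. It is not the spread between repeated cultures, also in the tests between lines.

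Binding of antigen brings B-cell receptors together, and LYN, a Src-family kinase, then phosphorylates the tails of CD79A and CD79B, the signalling chains that sit beside the membrane immunoglobulin. SYK docks on these tails, and the adaptor BLNK gathers SYK, BTK and PLCG2 so that phospholipase C gamma makes the messengers that release calcium. CD22, a sialic acid-binding receptor, and PTPN6, the phosphatase SHP-1 that it recruits once LYN has phosphorylated it, damp the signal. In Burkitt lymphoma, a germinal centre B-cell tumour driven by MYC, signalling of this kind without antigen is known to feed survival through PI3 kinase.

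Of the 9 members, 6 passed the test (an adjusted p under 0.05) in at least 1 pair of lines, as did 60.9% of all tested genes. Raji cells had the highest CD22, PTPN6 and LYN signals, the highest PLCG2 signal by its brightest probe set and the lowest BLNK signal. CD22 was graded over all 3 lines, and PTPN6 was lowest in Ramos. SYK and BTK had no difference between lines that passed. No member passed the test between miR26a and empty arrays, where the SYK signal was 1.29-fold higher on average in miR26a cells and higher in each line.

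Across the series, array medians were 4.36 to 4.44. The 4 measured B-cell markers (MS4A1, PAX5, CD79A and CD79B) and the 4 germinal centre markers (MME, BCL6, CD38 and MYC) were above the level minimum of 4.42, the median of all probe sets other than controls, on every array. The B-cell markers' summed linear signal was 3232 to 7800 in miR26a arrays and 3065 to 7539 in empty arrays. Of 7 T and NK cell markers, 6 were below that minimum on every array, as were 4 of 5 monocyte markers, while 3 of 4 plasma cell markers were above it. CD3E among the T cell markers, HBB (4.76 to 5.83), a red cell gene, and COL1A1 (6.53 to 7.15), a fibroblast gene, were above it on every array as well, and their part in the results was not tested. The T and NK markers summed to 95.5 to 112 in miR26a arrays and 98.1 to 117 in empty arrays. EZH2, the gene the study asked about, was lower by a mean log2 difference of -0.56 (SE 0.12) in miR26a cells and did not pass the test (adjusted p = 0.106 in limma). The Namalwa empty array had the largest gap between the 3′ and 5′ control probe sets of actin, 3.58 against 1.80 to 1.98 on the other 5 arrays. It also had the largest gap for GAPDH, 0.31 against 0.10 to 0.16. The part of this array in the results was not tested beyond leaving it out.

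The sequence of the induced microRNA is shown first because the labels set the miR26a arrays apart from the empty ones by it. The level of the mature microRNA was not measured here. Mature miR-26a-5p is encoded at both chr3:37969413-37969434 (plus strand, MIR26A1) and chr12:57824658-57824679 (minus strand, MIR26A2) of GRCh38.p14 in RefSeq, and capitals mark its seed, bases 2 to 8.
hsa-miR-26a-5p: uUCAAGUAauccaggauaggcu

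The RefSeq promoter windows of 3 members are shown next because CD22, PTPN6 and BLNK were the members with the widest differences between lines. Each window runs from 250 bases before to 50 bases after an annotated start, on GRCh38.p14. CD22 lies at chr19:35328937-35329236 (plus strand), BLNK at chr10:96271520-96271819 (minus strand) and the first of 2 windows of PTPN6 at chr12:6946327-6946626 (plus strand). Capitals mark matches, on either strand, to 5 motifs, of which none contains another. The EBF1 core was written CCCNNGGG and the octamer ATGCAAAT. The core shared by PU.1 and SPI-B was written GAGGAA. The E-box read by E2A was CAGGTG. The TATA box was searched as TATAAA.
CD22: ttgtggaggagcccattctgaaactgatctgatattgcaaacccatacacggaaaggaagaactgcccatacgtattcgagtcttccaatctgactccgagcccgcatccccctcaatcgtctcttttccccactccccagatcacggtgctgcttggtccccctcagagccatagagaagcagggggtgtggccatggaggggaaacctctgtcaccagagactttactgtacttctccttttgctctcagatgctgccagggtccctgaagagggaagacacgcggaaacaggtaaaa
PTPN6: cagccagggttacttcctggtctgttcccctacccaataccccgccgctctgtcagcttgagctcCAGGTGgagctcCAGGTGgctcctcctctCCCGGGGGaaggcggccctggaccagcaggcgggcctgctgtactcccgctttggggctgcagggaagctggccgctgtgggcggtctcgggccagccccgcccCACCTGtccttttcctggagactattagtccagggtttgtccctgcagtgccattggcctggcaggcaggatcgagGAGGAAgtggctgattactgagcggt
BLNK: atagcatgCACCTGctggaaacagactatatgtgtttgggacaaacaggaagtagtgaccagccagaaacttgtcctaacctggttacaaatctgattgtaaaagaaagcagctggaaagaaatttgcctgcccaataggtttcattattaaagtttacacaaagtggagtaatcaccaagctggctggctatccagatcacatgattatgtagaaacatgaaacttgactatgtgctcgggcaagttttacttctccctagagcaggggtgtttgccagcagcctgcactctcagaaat
The PTPN6 window shown held 5 matches, 3 of them to CAGGTG, the BLNK window held 1 and the CD22 window held 0. The second PTPN6 window, not shown, held 1 match, to CCCNNGGG, and 61.7% of it was G and C. Which PTPN6 start these cells used was not tested. Of 35116 promoter windows in the table, 20.59% held CAGGTG, 27.85% GAGGAA, 19.07% CCCNNGGG, 11.53% TATAAA and 1.77% ATGCAAAT. G and C made up 65.0% of the PTPN6 window shown, 53.0% of the CD22 window and 42.7% of the BLNK window, against a median of 58.7% over all windows. The BLNK window had 1 CG pair and only 4.0% of windows had fewer. The matches describe these letters and are not binding sites.

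The signalling chains were measured first along the pathway. CD79A had 8.56 (miR26a) and 8.29 (empty) in Raji, 8.43 and 8.17 in Namalwa, and 7.83 and 7.90 in Ramos. The Ramos arrays were the lowest, while those of Raji and Namalwa overlapped. The difference was 0.56 on the log2 scale in Raji minus Ramos (95% interval 0.26 to 0.87, 1.48-fold, adjusted p = 0.00679), and 0.44 in Namalwa minus Ramos (0.13 to 0.74), which did not pass (adjusted p = 0.0613). Without the Ramos miR26a array the Raji minus Ramos difference of CD79A was 0.40 (adjusted p = 0.140), and the second probe set of CD79A gave 0.32 (adjusted p = 0.146). CD79B had 10.09 (miR26a) and 10.07 (empty) in Raji, 9.96 and 9.66 in Namalwa, and 9.99 and 9.72 in Ramos. Its Raji arrays were the highest by a small margin, and no pair of lines passed the test (adjusted p = 0.117, 0.181 and 0.848).

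LYN, which starts the cascade and also phosphorylates CD22, had its highest level in Raji. Its signals were 9.34 (miR26a) and 9.62 (empty) in Raji, 8.54 and 8.62 in Namalwa, and 8.26 and 8.43 in Ramos. Both Raji arrays were above all 4 others. LYN was higher by 0.90 in Raji than in Namalwa (95% interval 0.62 to 1.18, 1.86-fold, adjusted p = 2.88e-04) and by 1.13 in Raji than in Ramos (0.85 to 1.41, 2.19-fold, adjusted p = 5.66e-05). Namalwa minus Ramos was 0.24 and did not pass (adjusted p = 0.255). All 3 LYN probe sets passed in both comparisons with Raji, with differences of 0.89 to 0.96 against Namalwa and 0.94 to 1.13 against Ramos.

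SYK, the kinase that docks on the receptor tails, and BTK, which acts on phospholipase C gamma, showed no difference between lines that passed. SYK had 8.98 (miR26a) and 8.53 (empty) in Raji, 9.10 and 8.76 in Namalwa, and 8.97 and 8.65 in Ramos. BTK had 8.84 and 8.91 in Raji, 8.72 and 8.62 in Namalwa, and 8.86 and 8.64 in Ramos. The arrays of the lines overlapped for SYK in every pair and for BTK in both pairs with Ramos. Raji minus Namalwa was -0.18 for SYK (adjusted p = 0.273) and 0.20 for BTK (adjusted p = 0.234). In Raji minus Ramos the 95% interval was -0.33 to 0.22 for SYK and -0.17 to 0.41 for BTK. Only 12.9% of tested genes had a smaller range of line means than SYK, and 16.5% a smaller one than BTK.

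BLNK, the adaptor, was the member that was lower in Raji than in both other lines by the test. It had 8.24 (miR26a) and 8.17 (empty) in Raji, 9.53 and 9.43 in Namalwa, and 9.54 and 9.54 in Ramos. The Raji arrays lay more than 1 log2 unit below every other array. The log2 difference was -1.27 in Raji minus Namalwa (SE 0.12, 2.41-fold lower in Raji, adjusted p = 2.48e-05) and -1.33 in Raji minus Ramos (SE 0.12, 2.51-fold lower in Raji, adjusted p = 1.62e-05). Namalwa minus Ramos was -0.06 (95% interval -0.33 to 0.21, adjusted p = 0.796). BLNK has 1 probe set, so no second one could check it.

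PLCG2, the phospholipase that turns the signal into calcium release, depended on the probe set. Its brightest probe set had 10.43 (miR26a) and 10.42 (empty) in Raji, 9.88 and 9.98 in Namalwa, and 9.75 and 9.63 in Ramos. By that probe set, PLCG2 was higher by 0.49 in Raji than in Namalwa (95% interval 0.21 to 0.78, adjusted p = 0.00968) and by 0.73 in Raji than in Ramos (0.45 to 1.02, 1.66-fold, adjusted p = 9.47e-04). The next brightest probe set ran the other way, with 7.92 (miR26a) and 7.87 (empty) in Raji and 8.53 and 8.46 in Ramos. It gave -0.61 in Raji minus Ramos, which also passed (adjusted p = 0.0157 in a fit over all probe sets), and the mean of the PLCG2 probe sets gave -0.005. No direction can therefore be given for PLCG2 as a gene. The mean of the probe sets ended the Raji minus Namalwa call too (0.21, adjusted p = 0.106), as did leaving out the Namalwa miR26a array (0.41, adjusted p = 0.0774).

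**Figure D1:**
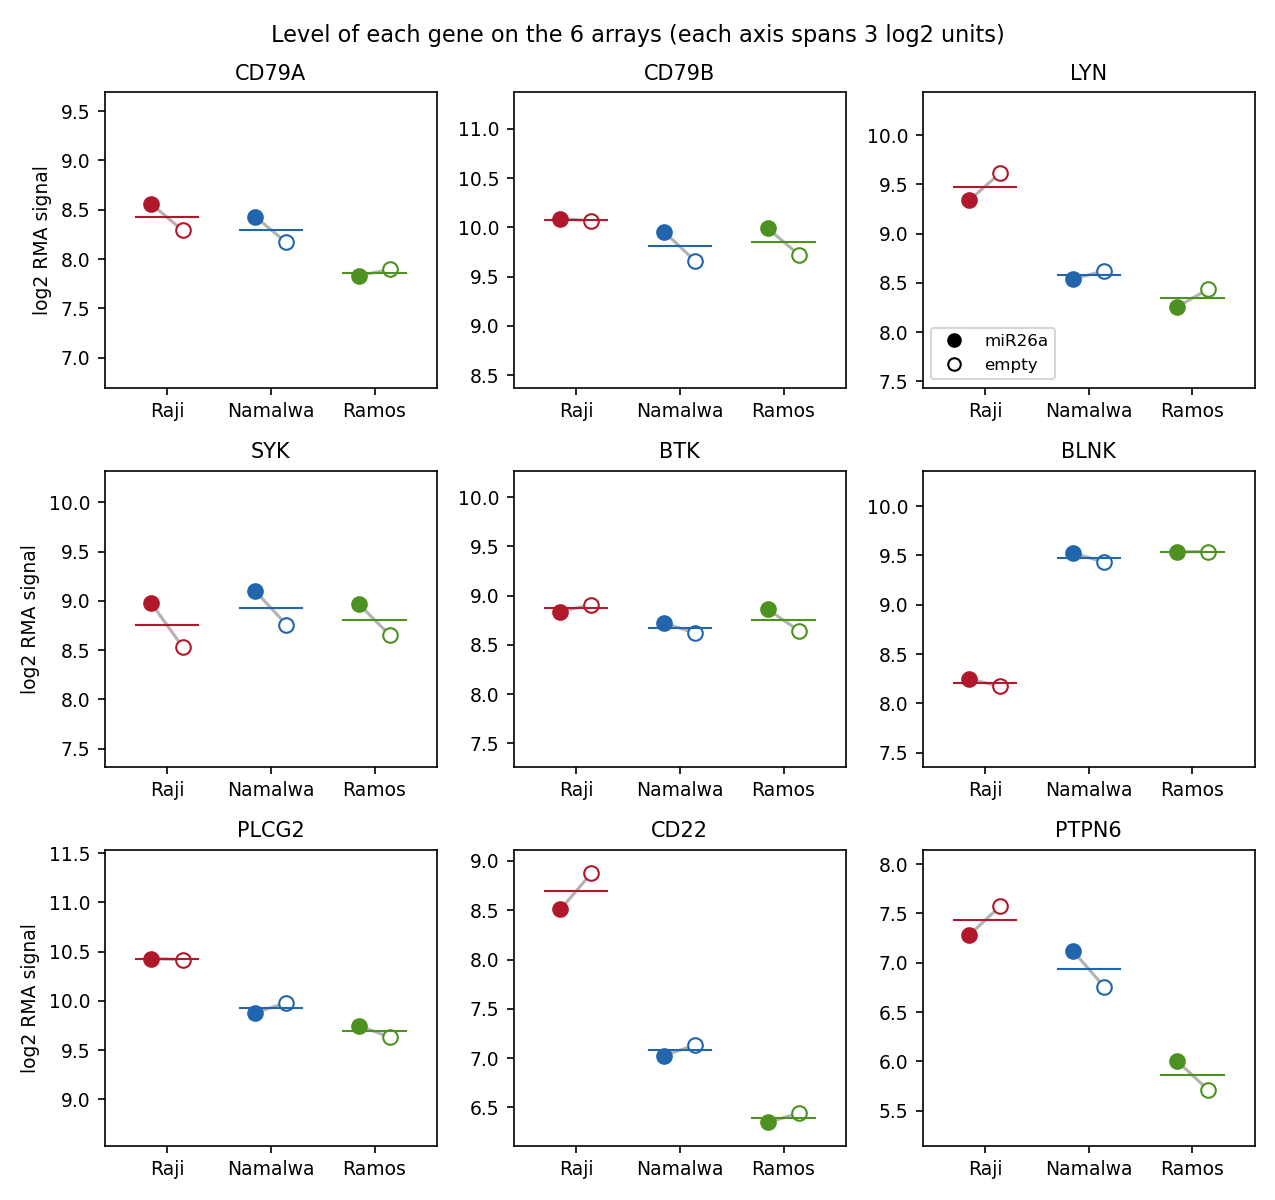
Level of each of the 9 genes (log2 intensity, vertical axes, each spanning 3 units) on the 6 arrays, by line, with filled points for miR26a and open points for empty arrays, and a bar at the line mean. CD22 lies at 8.51 and 8.88 in Raji against 6.35 and 6.44 in Ramos, BLNK is lowest in Raji, and SYK is higher in the miR26a array of each line.

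The inhibitory members differed most. CD22 had 8.51 (miR26a) and 8.88 (empty) in Raji, 7.02 and 7.13 in Namalwa, and 6.35 and 6.44 in Ramos. The arrays of the 3 lines did not overlap, and the order was Raji, Namalwa, Ramos in both groups. CD22 was higher by 1.61 in Raji than in Namalwa (95% interval 1.32 to 1.91, 3.06-fold, adjusted p = 7.87e-06), by 2.30 in Raji than in Ramos (2.00 to 2.59, 4.91-fold, adjusted p = 5.74e-07) and by 0.68 in Namalwa than in Ramos (0.39 to 0.98, 1.61-fold, adjusted p = 0.00780). The last of these calls was lost without the Namalwa miR26a array (0.62, adjusted p = 0.0640) and without the Ramos empty array (0.61, adjusted p = 0.0875). All 4 CD22 probe sets passed in Raji minus Namalwa, with 1.47 to 1.73. The second brightest gave 3.51 in Raji minus Ramos and 1.92 in Namalwa minus Ramos, both larger than by the brightest. On the other 2 the Ramos arrays were below the level minimum, at 3.73 (miR26a) and 3.74 (empty) on one and at 2.95 and 3.20 on the other. Against that minimum, CD22 was at least 9.10-fold and at least 2.95-fold higher in Raji than in Ramos by these 2 probe sets. CD22 had a wider range of line means than 95.9% of tested genes.

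PTPN6 followed the same order of lines. It had 7.28 (miR26a) and 7.58 (empty) in Raji, 7.12 and 6.76 in Namalwa, and 6.01 and 5.71 in Ramos. The Ramos arrays were clearly the lowest, and the gap between Raji and Namalwa was narrow in the miR26a arrays. PTPN6 was higher by 1.57 in Raji than in Ramos (95% interval 1.19 to 1.95, 2.97-fold, adjusted p = 4.75e-05) and by 1.08 in Namalwa than in Ramos (0.70 to 1.46, 2.11-fold, adjusted p = 0.00286). Raji minus Namalwa was 0.49 (0.11 to 0.87, 1.41-fold, adjusted p = 0.0371), made up of 0.16 in the miR26a arrays and 0.82 in the empty arrays. Leaving out the empty array of Namalwa ended that call (0.31, adjusted p = 0.298), as did leaving out that of Raji (0.18, adjusted p = 0.447) or dropping the group as a block (adjusted p = 0.0531). PTPN6 has 1 probe set.

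**Figure D2:**
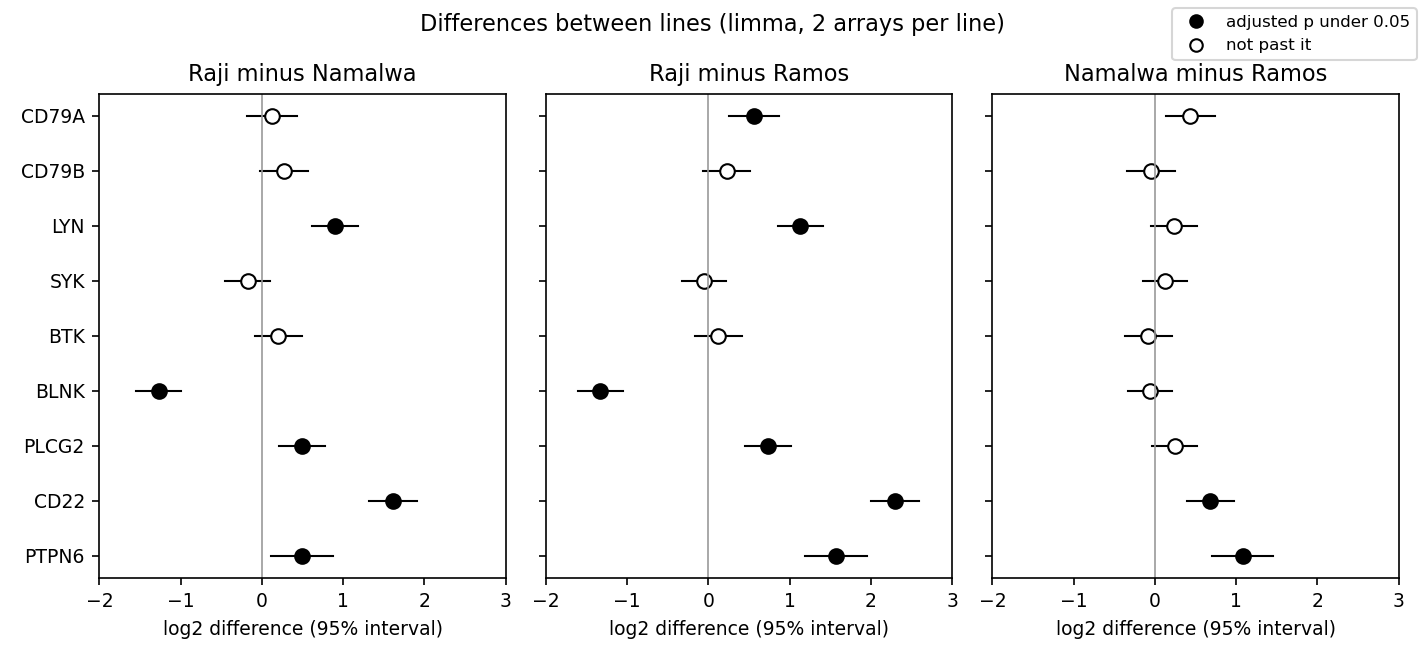
Log2 difference between lines for each gene (horizontal axes, with 95% intervals from limma, 2 arrays per line) in Raji minus Namalwa, Raji minus Ramos and Namalwa minus Ramos; filled points passed an adjusted p of 0.05. CD22 is the farthest to the right in both panels with Raji, at 1.61 and 2.30, and BLNK is the only gene to the left of zero that passed.

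As a group, 5 of the 9 members passed in Raji minus Namalwa, where 46.1% of all tested genes passed. LYN, CD22, PTPN6 and, by its brightest probe set alone, PLCG2 were higher in Raji (22.8% of tested genes were) and BLNK was lower (23.4% were). In Raji minus Ramos 6 of 9 passed, against 50.5% of tested genes. CD79A joined the 4 higher members (26.1% of tested genes were higher), of which PLCG2 again rested on its brightest probe set, and BLNK was again lower (24.4%). In Namalwa minus Ramos 2 of 9 passed, CD22 and PTPN6, both higher in Namalwa, against 14.7% of tested genes in either direction, 8.09% higher and 6.57% lower. No result is read from these counts over 9 genes. The median difference of the members was 0.27 in Raji minus Namalwa, 0.56 in Raji minus Ramos and 0.24 in Namalwa minus Ramos, and that of all tested genes was 0.05, 0.06 and 0.00. Leaving out the Namalwa empty array cost no call of LYN, BLNK, PLCG2 or CD22 between Raji and Namalwa.

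**Figure D3:**
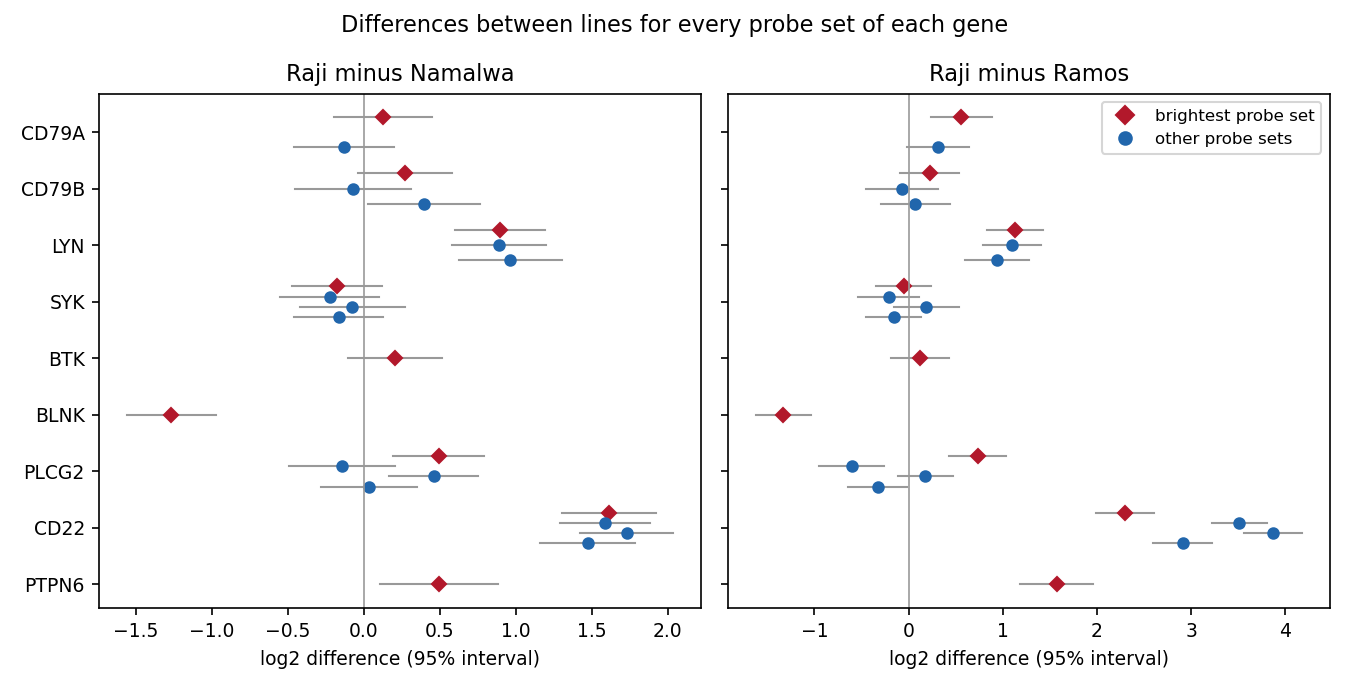
Log2 difference between lines (horizontal axes) for each of the 23 probe sets of the 9 genes, in Raji minus Namalwa and Raji minus Ramos, with 95% intervals, diamonds for the brightest probe set of a gene and circles for other probe sets. The 4 CD22 and 3 LYN probe sets stay above zero in both panels, and the PLCG2 probe sets spread from -0.61 to 0.73 in Raji minus Ramos; 2 of the CD22 values there rest on Ramos arrays below the level minimum.

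The comparison of miR26a with empty arrays asked what the induced microRNA did within each line. By limma 0 of the 9 members passed, as did 0% of tested genes, whose adjusted p began at 0.073. Counting unadjusted p under 0.05 instead, 1 member was higher (5.56% of tested genes were) and 0 were lower (7.33% were). That member was SYK. Its miR26a minus empty difference was 0.44 in Raji, 0.34 in Namalwa and 0.32 in Ramos, so that the signal was 136%, 127% and 124% of the empty array. The mean was 0.37 (SE 0.10, 95% interval 0.14 to 0.59), with an unadjusted p of 0.00487 and an adjusted p of 0.166. All 12 differences, from 4 SYK probe sets in 3 lines, were above 0, between 0.01 and 0.58. These probe sets share the same arrays and are not separate replicates.

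Other members moved less. CD79B and SYK were higher in all 3 lines, as 15.5% of tested genes were, and LYN and CD22 were lower in all 3, as 19.6% were. The CD79B difference was 0.02 in Raji, 0.30 in Namalwa and 0.27 in Ramos (mean 0.20, adjusted p = 0.486). In its 2 dimmer probe sets CD79B was lower in the Raji miR26a array, with differences of -0.13 and -0.16. LYN differed by -0.28 in Raji, -0.08 in Namalwa and -0.18 in Ramos (mean -0.18, adjusted p = 0.501). All 9 LYN differences over 3 probe sets were below 0. CD22 differed by -0.37 in Raji, -0.11 in Namalwa and -0.10 in Ramos (mean -0.19, adjusted p = 0.496), and all 10 differences over its 4 probe sets with an array above the level minimum were below 0. The other 2 pairs, both from Ramos, lay below that minimum. The probe sets of a gene share the same arrays and are not separate replicates, and none of these differences is a call.

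The remaining members did not move one way in the 3 lines. CD79A averaged a log2 difference of 0.16 (adjusted p = 0.605), with -0.06 in Ramos. PTPN6 averaged 0.12 (adjusted p = 0.777), from -0.30 in Raji, 0.36 in Namalwa and 0.29 in Ramos. BTK averaged 0.08 (adjusted p = 0.800), BLNK 0.06 (adjusted p = 0.867) and PLCG2 0.01 (adjusted p = 0.988). The median difference of the 9 members was 0.08 and that of all tested genes -0.01, with median absolute differences of 0.16 and 0.10.

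**Figure D4:**
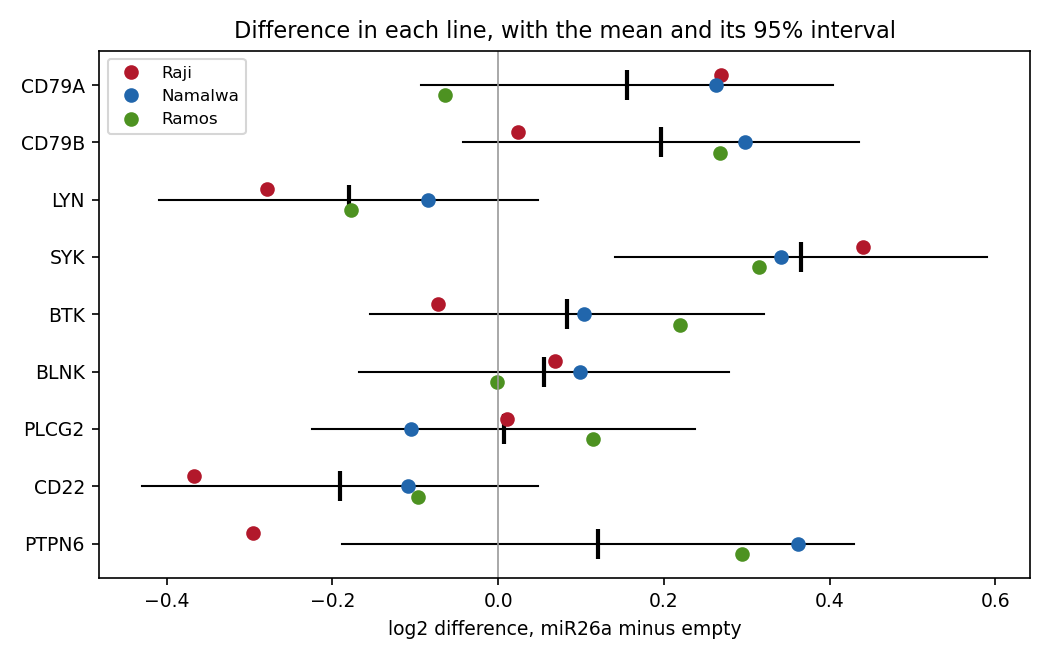
Log2 difference of miR26a minus empty for each gene (horizontal axis) in Raji, Namalwa and Ramos, with the mean of the 3 lines and its 95% interval. SYK is the only gene whose interval, 0.14 to 0.59, does not reach zero, and PTPN6 lies at -0.30 in Raji and at 0.36 and 0.29 in the other lines.

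The rest of the pathway was read from 8 lists with 99 genes in all, of which 84 were tested and the others were not analysed here. In Raji minus Namalwa, 23 pathway genes were higher and 16 lower, 46.4% of those tested, against 46.1% of all tested genes. In Raji minus Ramos 28 were higher and 17 lower (53.6%, against 50.5% of all tested genes), and in Namalwa minus Ramos 16 were higher and 10 lower (31.0%, against 14.7%). Their median differences were 0.07, 0.12 and 0.04. Between miR26a and empty arrays 0 passed in limma, with 3 of 84 higher and 6 lower at an unadjusted p under 0.05, where 5.56% and 7.33% of all tested genes were. The median difference was -0.02.

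Of the 5 immunoglobulin genes in the list of receptor chains, IGHM and IGLC1 differed most between lines, in opposite directions. IGHM, the mu heavy chain, averaged 13.1 in Raji, 10.8 in Namalwa and 10.9 in Ramos. It was higher by 2.28 in Raji than in Namalwa (adjusted p = 2.39e-06) and by 2.19 in Raji than in Ramos (adjusted p = 2.87e-06). IGLC1, a lambda light chain read by a probe set that may also bind its near-identical neighbours, averaged 9.15 in Raji, 12.4 in Namalwa and 12.8 in Ramos, with -3.22 in Raji minus Namalwa (adjusted p = 6.52e-07) and -3.61 in Raji minus Ramos (adjusted p = 2.66e-07). The IGHD probe set, for the delta heavy chain, averaged 5.34 in Raji, 5.37 in Namalwa and 4.55 in Ramos. The Ramos value lay just above the level minimum. The IGHD signal was higher by 0.79 in Raji (adjusted p = 4.87e-04) and by 0.82 in Namalwa (adjusted p = 0.00214) than in Ramos. It was not tested whether this dim probe set reads the delta chain, so no delta chain level is taken from it. The IGKC probe set that is annotated to 1 gene averaged 6.04 in Raji, 5.83 in Namalwa and 5.67 in Ramos. Its signal was higher by 0.37 in Raji than in Ramos (adjusted p = 0.0301) and did not pass in Raji minus Namalwa (0.22, adjusted p = 0.182). Whether this dim probe set reads the kappa chain was not tested, so no kappa level is taken from it. IGLL5 averaged 5.13 in Raji, 5.07 in Namalwa and 5.04 in Ramos, and passed in none of the 3 pairs, with differences of 0.07, 0.09 and 0.02.

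Of the coreceptor complex, which lowers the threshold for signalling, 3 of 4 genes were tested. CR2, the complement receptor, averaged 7.92 in Raji, 5.13 in Namalwa and 3.96 in Ramos, where it was below the level minimum. CR2 was higher by 2.79 in Raji than in Namalwa (adjusted p = 3.77e-07). Against the level minimum that stands for Ramos, CR2 was at least 11.3-fold higher in Raji and at least 1.64-fold higher in Namalwa. The limma test used the measured differences, 3.97 in Raji minus Ramos (adjusted p = 3.16e-08) and 1.18 in Namalwa minus Ramos (adjusted p = 8.66e-04). The order of lines of CR2 was that of CD22 and PTPN6. IFITM1 was below the level minimum on the Raji and Namalwa arrays, and at least 2.06-fold lower there than in Ramos. Its measured differences were -1.28 in Raji minus Ramos (adjusted p = 6.90e-05) and -1.29 in Namalwa minus Ramos (adjusted p = 5.18e-04). CD81, the tetraspanin of the complex, gave -0.31 in Raji minus Ramos and did not pass (adjusted p = 0.0584).

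Among 6 other tested kinases of the Src and Tec families, 1 was higher and 1 lower in Raji minus Namalwa, 3 higher and 2 lower in Raji minus Ramos, and 2 higher and 1 lower in Namalwa minus Ramos. These were 33.3%, 83.3% and 50% of the 6, against 46.1%, 50.5% and 14.7% of all tested genes. FGR, a Src-family kinase, averaged 7.93 in Raji, 6.30 in Namalwa and 5.32 in Ramos, so it was graded like CD22. BLK, the B-cell Src-family kinase, ran against LYN: it was lower in Raji, with -0.63 in Raji minus Namalwa (adjusted p = 0.00963) and -0.69 in Raji minus Ramos (adjusted p = 0.00558). LCK was higher by 0.77 in Raji than in Ramos (adjusted p = 0.0183).

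Of 15 adaptors and genes of the PI3 kinase arm, 5 were higher and 0 lower in Raji minus Namalwa, 5 higher and 1 lower in Raji minus Ramos, and 3 higher and 1 lower in Namalwa minus Ramos. The shares that passed were 33.3%, 40.0% and 26.7%, where all tested genes gave 46.1%, 50.5% and 14.7%. BANK1, a B-cell scaffold that binds LYN, averaged 7.26 in Raji, 6.01 in Namalwa and 4.25 in Ramos. Both Ramos arrays of BANK1 were below the level minimum, and against it BANK1 was higher by at least 2.84 log2 units in Raji and at least 1.58 in Namalwa. The measured BANK1 differences were 3.01 in Raji minus Ramos (adjusted p = 1.68e-07) and 1.75 in Namalwa minus Ramos (adjusted p = 7.96e-05). PIK3CD, the delta catalytic subunit of PI3 kinase, was higher by 0.98 in Raji than in Namalwa (adjusted p = 4.98e-04). LAT2, a membrane adaptor, was higher by 1.47 in Raji (adjusted p = 1.41e-04) and by 1.60 in Namalwa (adjusted p = 5.94e-04) than in Ramos.

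Downstream of PLCG2, the calcium and NFAT list (14 tested) had 5 higher and 3 lower in Raji minus Namalwa, 4 higher and 4 lower in Raji minus Ramos, and 1 higher and 3 lower in Namalwa minus Ramos. That was 57.1%, 57.1% and 28.6% of the list, beside 46.1%, 50.5% and 14.7% of all tested genes. ITPR2, a calcium release channel, averaged 5.95 in Raji, 8.78 in Namalwa and 7.83 in Ramos, and NFATC1, a calcium-driven transcription factor, 5.96, 7.64 and 7.59 in the same order. Both were lower in Raji, as BLNK was: in Raji minus Namalwa ITPR2 gave -2.83 (adjusted p = 7.11e-07) and NFATC1 -1.68 (adjusted p = 9.03e-06). PPP3CA, a catalytic subunit of calcineurin, went the other way at 1.58 in Raji minus Namalwa (adjusted p = 7.69e-06).

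The list of protein kinase C and NF-kB arm genes (9 tested) had 1 higher and 4 lower in Raji minus Namalwa, 1 higher and 2 lower in Raji minus Ramos, and 2 higher and 1 lower in Namalwa minus Ramos. This made 55.6%, 33.3% and 33.3% of the list, and the shares over all tested genes were 46.1%, 50.5% and 14.7%. PRKCD averaged 7.02 in Raji, 6.03 in Namalwa and 5.15 in Ramos. PRKCE ran in the opposite order, with -1.45 in Raji minus Ramos (adjusted p = 2.06e-05), and CHUK, an IkB kinase, gave -0.79 in Raji minus Namalwa (adjusted p = 0.00465). In the RAS and MAPK list (9 tested), 4 were higher and 2 lower in Raji minus Namalwa, 5 higher and 1 lower in Raji minus Ramos, and 2 higher and 1 lower in Namalwa minus Ramos, or 66.7%, 66.7% and 33.3% against those same shares. RASGRP1, an exchange factor that diacylglycerol recruits, averaged 8.19 in Raji, 7.41 in Namalwa and 6.24 in Ramos. SOS1, another exchange factor, was lower in Raji, with -1.94 in Raji minus Namalwa (adjusted p = 1.70e-06) and -1.89 in Raji minus Ramos (adjusted p = 1.76e-06). SOS2 was higher by 0.92 in Namalwa than in Ramos (adjusted p = 0.00163), and HRAS was higher by 1.32 in Raji than in Namalwa (adjusted p = 5.70e-05).

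Of 23 other inhibitory receptors, phosphatases and adaptors, 5 were higher and 5 lower in Raji minus Namalwa, 6 higher and 5 lower in Raji minus Ramos, and 4 higher and 2 lower in Namalwa minus Ramos. The list's shares were 43.5%, 47.8% and 26.1%, and those of all tested genes 46.1%, 50.5% and 14.7%. The high CD22 and PTPN6 of Raji were not shared by every inhibitor. CD72, a B-cell receptor that also recruits SHP-1, averaged 6.57 in Raji, 8.44 in Namalwa and 7.64 in Ramos, with -1.87 in Raji minus Namalwa (adjusted p = 2.37e-06) and -1.07 in Raji minus Ramos (adjusted p = 9.11e-05). PECAM1, with inhibitory motifs in its tail, was lower in Raji, with -1.68 in Raji minus Namalwa (adjusted p = 7.69e-06). PTPN12, a phosphatase, was higher by 1.35 in Raji (adjusted p = 2.16e-05) and by 1.15 in Namalwa (adjusted p = 5.00e-04) than in Ramos.

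**Figure D5:**
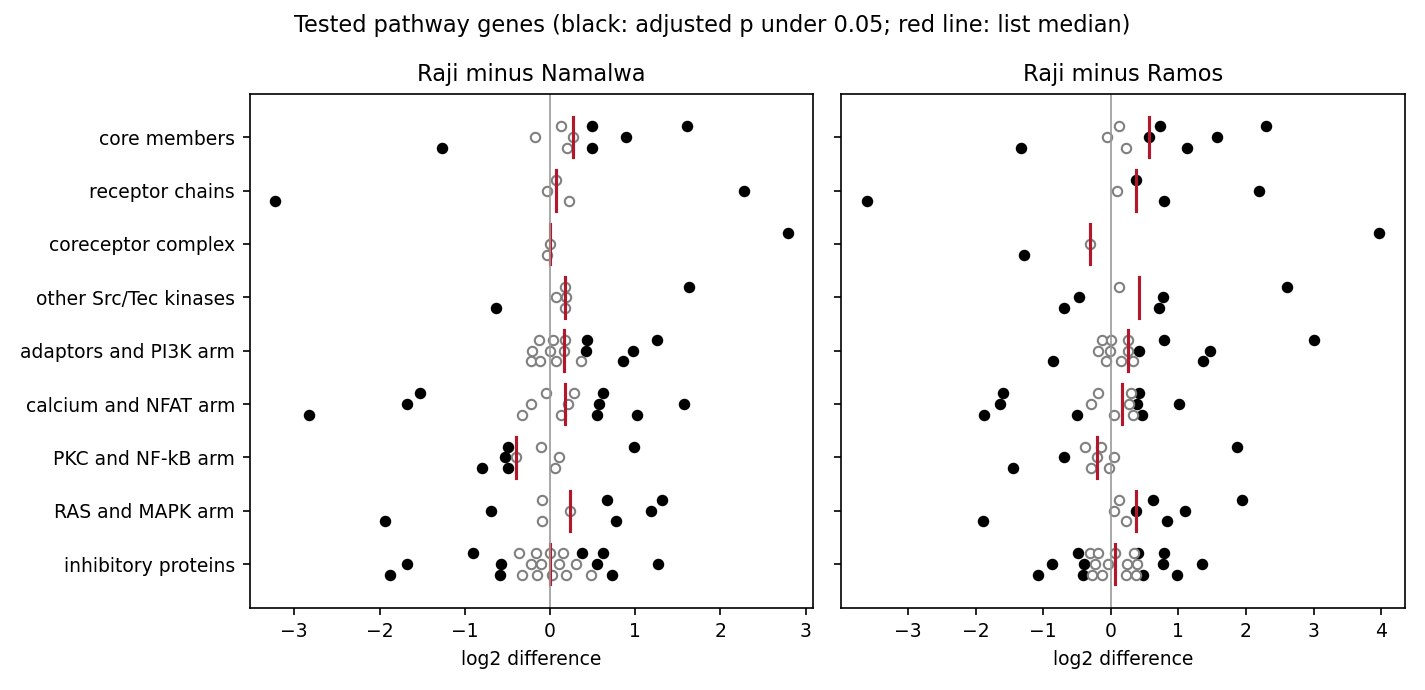
Log2 difference between lines (horizontal axes) for the 9 members in the top row and the 84 tested pathway genes in their 8 lists, in Raji minus Namalwa and Raji minus Ramos, black where the adjusted p was under 0.05, with a red line at each list's median. The medians of the 8 lists lie between -0.40 and 0.42 in both panels, and most lists hold genes that passed on both sides of zero.

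Between miR26a and empty arrays, the gene of each list with the largest mean difference was LCK (-0.50), RASGRP1 (-0.37), CD72 (0.34), PRKCD (-0.32), PPP3R1 (-0.26), PIK3R5 (0.23), IGKC (0.20) or CD81 (-0.19). None passed. CD72 was higher in every line, by 0.48 in Raji, 0.23 in Namalwa and 0.30 in Ramos (adjusted p = 0.216). RASGRP1 was lower in every line, with -0.49 in Raji, -0.54 in Namalwa and -0.09 in Ramos. The LCK value came mostly from Raji, at -1.15 against 0.01 in Namalwa and -0.37 in Ramos.

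The genes whose centred profiles over the 6 arrays lay nearest to each member were found by the root mean square difference in log2 units, a description over 6 arrays that fall into 3 lines. Nearest to CD22 were LTB, a lymphotoxin (0.109), and BCL6, the germinal centre repressor (0.136). Nearest to PTPN6 were NEDD9, a docking protein (0.046), and SPIB, a B-cell transcription factor (0.096). The nearest genes to LYN were GALK1 (0.060) and MEA1 (0.064), and to BLNK SND1-IT1 (0.041) and CAPZA2 (0.053). For the other members, they were BICDL1 and CCDC107 for CD79A, C10orf62 and DPCD for CD79B, SECISBP2L and WDR47 for SYK, SDHAF1 and TTLL10 for BTK, and IL9R and RBKS for PLCG2, at 0.025 to 0.064.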

How the data were processed

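Total RNA of 6 samples was measured on 1 array each, and groups and lines were read from their labels. The deposited log2 intensities were made by the authors with RMA in BRB Array Tools per the labels' design text; the submitters' processing notes name GCOS and RMA, and versions are not given in the sources used here. The labels describe a filter on varying probe sets, but the table holds 54675 probe sets. No scanner files or detection calls were used, and a shift of all RNAs one way would not be visible after RMA.

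The platform annotation gives 1 symbol to 41091 of them, several to 1801 and none to 11721, beside 62 controls. Symbols of 41037 were updated through Entrez IDs with a RefSeq table (GRCh38.p14), used for names. A gene was its brightest probe set by mean over the 6 arrays, and 12012 genes with a mean at or above 4.42 were tested. All 9 members and all 23 of their probe sets passed this filter, and every array's value of the brightest ones was above it. Where both arrays of a line lay below it, a fold was taken against 4.42 and is a bound, which was not itself tested.

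limma (3.58.1, R 4.3.3) was fitted over all tested genes with line and group as terms, followed by Benjamini-Hochberg adjustment over them and a threshold of 0.05. The line pairs the miR26a and empty arrays: deviations from the group means correlated at 0.950 in Raji, 0.861 in Namalwa and 0.917 in Ramos. The fit was tested on simulated data with known changes, in which only genes given a change differed between lines. The measured data had many more genes that differed between lines. Alternatives changed the block, scaling, level minimum, probe set rule, moderation and threshold, or left out arrays; the fit over all probe sets was chosen after seeing the data. The number of arrays limits the precision.

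The members and lists were chosen with earlier results of these data known. Named genes were the members, EZH2, all tested receptor chains and coreceptors, per list the 2 genes with the largest difference in each pair of lines and the 1 with the largest miR26a minus empty difference, and for each member the 2 genes with the nearest profile. Promoter windows were used for 7 of 9 members, as none was found for CD79B and LYN was left out.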

Additional observations from a re-analysis of the deposited data

Results flagged for a closer look

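The miR26a minus empty difference of PTPN6 had opposite signs in different lines. It was -0.30 on the log2 scale in Raji, while that of Namalwa was 0.36 and that of Ramos 0.29. The Namalwa pair included the empty array with the largest 3′ to 5′ gap of actin, 3.58. Each line gave 1 pair of arrays, so the difference between lines was not tested. PTPN6 was read from 1 probe set.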

How the results depend on the processing

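Over the alternatives, 0 members passed between miR26a and empty arrays, and the adjusted p of SYK ran from 0.0926 to 1.00. Without each array in turn, 4074 to 5104 of 12012 tested genes passed in Raji minus Namalwa, 4237 to 5624 in Raji minus Ramos and 870 to 983 in Namalwa minus Ramos. The members that passed among them numbered 4 to 5, 5 to 6 and 1 to 2 in these pairs. Without moderation of the variances, the members that passed numbered 1, 3 and 0 in those pairs of lines. BLNK alone passed in Raji minus Namalwa, where the adjusted p of CD22 was 0.0561 and that of LYN 0.0593. BLNK, CD22 and LYN passed in Raji minus Ramos, where the adjusted p of PTPN6 was 0.0881. With a 2-fold minimum, the members that passed numbered 2 in Raji minus Namalwa and 1 in Namalwa minus Ramos. With no replicate block (line or group left out of the fit) the members that passed numbered 0, 4, 6 and 2. In that fit 40.6% of tested genes passed in Raji minus Namalwa and 45.1% in Raji minus Ramos. In that limma fit, which leaves the group out of the tests between lines, the PTPN6 call between Raji and Namalwa was lost (adjusted p = 0.0531). That call was also lost with no level minimum (adjusted p = 0.0502) or with the most variable probe set per gene (0.0514). CD79A passed in Namalwa minus Ramos after a second quantile normalization (adjusted p = 0.0349), a higher level minimum (0.0425), the mean of probe sets (0.0402) or a trended, robust prior (0.0374).

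Genes called in miR26a minus empty numbered 0, but 50 with the higher level minimum, 102 with the trended prior, 203 without Raji, 23 without Ramos and 79 at a threshold of 0.1. Without moderation, tested genes called fell to 490 in Raji minus Namalwa, 988 in Raji minus Ramos and 0 in Namalwa minus Ramos, against 5543, 6068 and 1761; with the 2-fold minimum they were 1683, 1868 and 340. Namalwa minus Ramos had 870 to 983 without single arrays and 783 at 0.01. Pathway genes called without moderation were 2, 7 and 0, against 39, 45 and 26; with the 2-fold minimum 16, 19 and 9, and at 0.01 16 in Namalwa minus Ramos. The cause of these shifts was not tested.

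Signs turned, all in differences that had not passed except those of PLCG2 between Raji and the other lines. In miR26a minus empty, leaving out each line gave -0.0007 (without Namalwa) to 0.33 for PTPN6 and -0.047 (without Ramos) to 0.062 for PLCG2, and another PLCG2 probe set gave -0.093. With the mean of probe sets, CD79A was -0.004 in Raji minus Namalwa, and PLCG2 -0.0052 in Raji minus Ramos and -0.22 in Namalwa minus Ramos. A second quantile normalization gave SYK 0.069 in Raji minus Ramos, and CD79B 0.029 and BLNK 0.012 in Namalwa minus Ramos. The most variable SYK probe set gave 0.19 in Raji minus Ramos, and leaving out 1 array -0.11 to 0.0031 (without Raji empty). Leaving out 1 array gave -0.12 to 0.027 for CD79B (above 0 without Namalwa empty or Ramos miR26a) and -0.18 to 0.0215 for BTK (above 0 without Ramos miR26a) in Namalwa minus Ramos. Other probe sets gave -0.13 (CD79A), -0.072 (CD79B) and -0.15 (PLCG2) in Raji minus Namalwa, -0.065 (CD79B), -0.61 and -0.33 (PLCG2) in Raji minus Ramos, and 0.0072 (CD79B), -0.022 (LYN), -0.46, -0.28 and -0.36 (PLCG2) in Namalwa minus Ramos.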
